A study of Mus musculus with 5 samples.

Results

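The genes described here belong to the integrated stress response and to the program driven by the transcription factor ATF4. They were chosen by name from a list of 39: stress response factors, enzymes of amino acid and one-carbon metabolism, and genes of the endoplasmic reticulum (ER) and NRF stress arms, without tRNA synthetases, solute carriers or initiation factors. Of the 39 names, 30 were found in the deposited table, all with a value in every siRNA library, among 12088 genes with complete values and 12930 in all. Atf5, Ddit4, Chac1, Sesn2, Cebpb, Fgf21, Gdf15, Ppp1r15a and Jdp2 had no row under those names and are not analysed here.

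RNA was sequenced from OG2 mouse embryonic stem cells, whose strain is given as (CBA/CaJxC57BL/6J) with 129Sv/Jae, in 5 libraries. The siDhx30 group (2 libraries) received an siRNA against Dhx30, the gene of a helicase of mitochondrial RNA granules. The siTfam group (2 libraries) received an siRNA against Tfam, the gene of a protein that takes part in transcribing and packaging mitochondrial DNA. The NC group (1 library) is labelled as the negative control. Per the labels' protocols, all cells spent 24 h in N2B27 medium with LIF, PD0325901 and CHIR99021. They were then transfected at 50 nM siRNA and kept for 36 h in a medium with 12.5 ng/ml bFGF and 20 ng/ml Activin A. The control cells therefore share the move out of the naive-state medium. Each siRNA library has 1 log2 ratio a gene, taken here to be against the single NC library. No level, count or read total was used, so the depth is unknown. Whether replicates were separate cultures is not labelled, and the p-values below cover only the spread between the libraries at hand, which may be technical.

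In the integrated stress response, kinases that sense different stresses phosphorylate the initiation factor eIF2 alpha. General translation then drops while translation of the Atf4 mRNA goes up. ATF4 protein binds composite C/EBP-ATF sites and raises transcription of genes for amino acid synthesis, amino acid import, tRNA charging and one-carbon metabolism, together with its own feedback inhibitors. Mitochondrial dysfunction is a known trigger in mammalian cells, through the protease OMA1, the messenger protein DELE1 and the kinase HRI. Because ATF4 is controlled largely by translation, the level of Atf4 mRNA is an incomplete readout of the pathway, and its target genes are commonly read instead.

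Matches to the C/EBP-ATF sites named above are shown first, whatever the ratio of the gene. RefSeq promoter windows on GRCm38.p6, running from 250 bases before to 50 bases after the start of a gene, were searched on both strands for the C/EBP-ATF core TGATGNAA, whose other strand reads TTNCATCA. Of the 39 names 36 had a window, and 10 of these (27.8%) held the core, against 4.51% of all 27025 genes with a window. The names were chosen as genes of the ATF4 program and the stress response, so a higher share could be expected beforehand. Among the measured genes 7 of 27 held it, and these are printed 5′ to 3′ on the strand of the gene with the core in capitals. Stretches that touch an annotated exon were shortened to 30 bases.
Nupr1 (chr7:126625562-126625591, minus strand): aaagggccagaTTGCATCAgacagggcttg
Vldlr (chr19:27216809-27216838, plus strand): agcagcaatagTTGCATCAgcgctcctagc
Asns (chr6:7693214-7693243, minus strand): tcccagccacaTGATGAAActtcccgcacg
Trib3 (chr2:152344028-152344057, minus strand): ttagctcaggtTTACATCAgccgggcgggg
Atf3 (chr1:191183396-191183483, minus strand): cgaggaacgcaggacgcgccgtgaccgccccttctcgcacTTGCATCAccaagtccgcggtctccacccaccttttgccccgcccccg
Herpud1 (chr8:94386277-94386364, plus strand): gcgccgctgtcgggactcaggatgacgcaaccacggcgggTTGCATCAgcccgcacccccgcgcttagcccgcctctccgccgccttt
Pycr1 (chr11:120643804-120643891, minus strand): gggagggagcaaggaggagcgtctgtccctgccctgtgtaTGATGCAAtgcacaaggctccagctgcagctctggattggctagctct

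In Nupr1 and in Atf3 the core began 110 bases before the RefSeq start used for the window, and in Vldlr 200 before it. It began 112 bases before that start in Herpud1, 103 in Pycr1 and 23 in Asns, and in Trib3 at base 15 counted from it. Gene spans given below are from GENCODE M21, whose gene ends differ from these starts. The printed stretches of Nupr1, Vldlr, Asns and Atf3 lie inside the GENCODE spans of those genes. A match describes the letters only, and no binding was measured here. Among genes without a measured value, Chac1, Fgf21 and Jdp2 also held the core.

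Every ratio in the following is siRNA over NC. The headings give no direction, so it was inferred from missing values: where a gene lacked a value in some library, its remaining values, 1574 in all, were negative without exception as deposited. A filter that keeps a gene when either library of a ratio is high enough leaves that pattern only if the deposited ratio is NC over siRNA, and the signs were therefore turned; the filter used is not stated. If the deposited signs were kept, every direction below would turn round, including that between the siRNAs. The targeted transcripts came first as a check of the labels. Dhx30 had log2 ratios of -0.40 and -0.20 in its own libraries, and Tfam had -0.28 and -0.02 in its own (limma adjusted p = 0.998 and 0.987), so a knockdown at the RNA level was not established for either.

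Across the 30 genes, the siTfam libraries lay slightly above NC and the siDhx30 libraries lay close to it. Over the siTfam libraries the median log2 ratio was 0.13, with 22 of 30 genes above NC, whereas all genes had a median of -0.02 and 47.3% above NC. In the siDhx30 libraries the median was -0.01, with 13 of 30 above NC, where all genes also had -0.01 and 48.1%. No gene of the 30 passed an adjusted p of 0.05 in any comparison (limma, smallest adjusted p 0.998 in siDhx30 against NC, 0.676 in siTfam against NC and 0.999 between the siRNAs). The share called among all genes was 0% in each of these comparisons. At an unadjusted limma p under 0.05 the counts were 0 of 30 in siDhx30 against NC (5.04% of all genes), 2 in siTfam against NC (6.11%) and 2 between the siRNAs (2.79%), and both pairs were Nupr1 and Vldlr. On simulated data with 200 changed genes among 12088, the same test recovered 0% of those with a log2 change of 1 in siTfam against NC and 0% between the siRNAs. Single-gene differences of the size seen here were therefore below what the test could call.

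**Figure D1:**
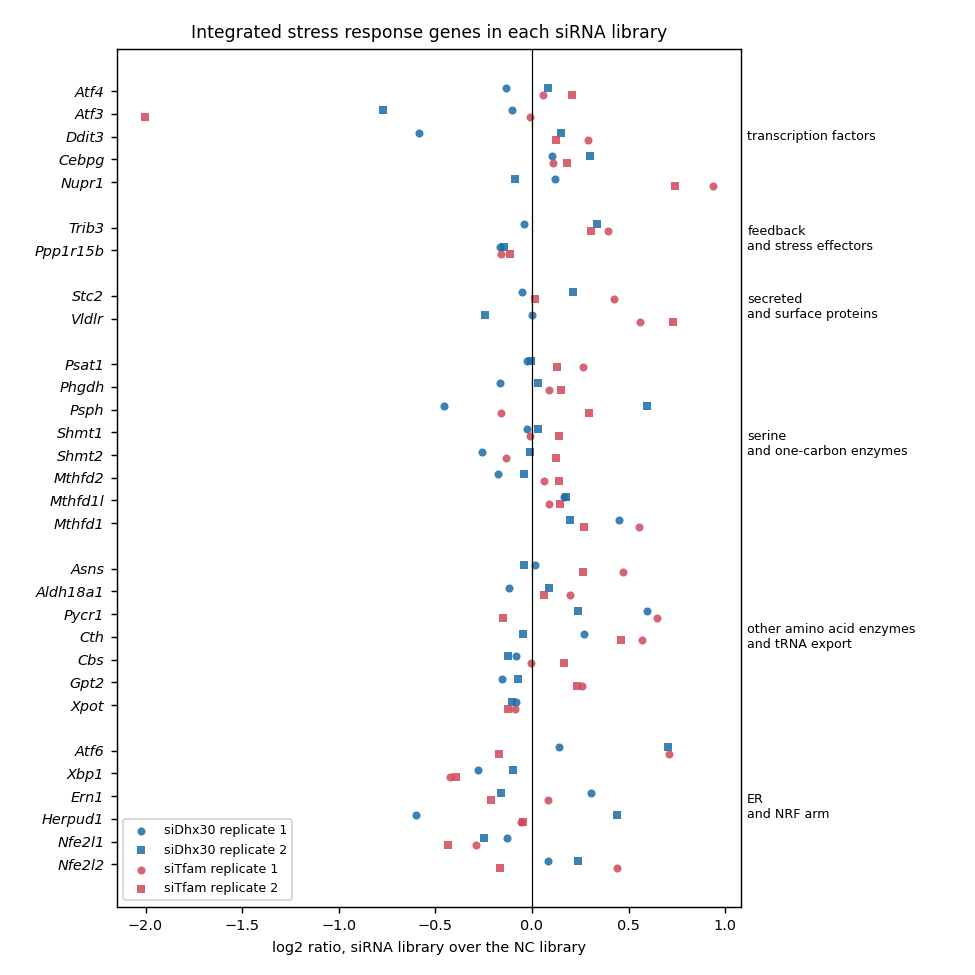
Log2 ratio of each siRNA library over the NC library (horizontal axis) for the 30 measured genes, grouped by role. Circles are replicate 1 and squares replicate 2, blue for siDhx30 and red for siTfam, and both red points of Nupr1 and Vldlr lie above 0.5 while Atf3 in siTfam replicate 2 lies at -2.00.

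Of the transcription factors, 5 of 8 listed genes were measured, and Nupr1 stood highest in siTfam. Nupr1 (ENSMUSG00000030717.9, GRCm38 chromosome 7, 126623249 to 126630861, minus strand) encodes a small stress-induced chromatin cofactor. Its log2 ratios were 0.94 and 0.74 in the siTfam libraries and 0.12 and -0.09 in the siDhx30 libraries. Both siTfam libraries were thus high and the groups did not overlap. The siTfam mean of 0.84 corresponds to 1.79 times the NC level, with a 95% interval of 0.24 to 1.43 on the log2 scale (limma adjusted p = 0.676). As a difference of 2 siTfam libraries from 1 NC library it had a limma SE of 0.22. Against siDhx30 the difference was 0.82 (interval 0.34 to 1.31, limma adjusted p = 0.999), and 1.91% of all genes had a larger one. That interval is for this gene alone, without correction for the number of genes.

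Atf4 itself (ENSMUSG00000042406.8, GRCm38 chromosome 15, 80255184 to 80257541, plus strand) differed little. Its ratios were 0.05 and 0.21 in siTfam and -0.14 and 0.08 in siDhx30, so the groups overlapped, and the siTfam minus siDhx30 difference was 0.16 (interval -0.32 to 0.63). Ddit3, which encodes the factor CHOP, had ratios of 0.29 and 0.13 in siTfam against -0.58 and 0.15 in siDhx30. A single library, siDhx30 replicate 1, set Ddit3 apart: without it the siTfam minus siDhx30 difference was 0.06, against 0.43 with it. Of the annotated exon bases of Ddit3, 3.97% also lie in exons of a neighbouring gene on the other strand, and strand use is not given. Cebpg, which encodes the C/EBP partner of ATF4, lay at 0.11 and 0.18 in siTfam and at 0.10 and 0.30 in siDhx30, above NC in every library. Atf3, itself a stress-induced repressor and activator, went the other way, with -0.0118 and -2.00 in siTfam and -0.10 and -0.77 in siDhx30. Its siTfam replicates differed by 1.99, more than those of any other measured gene of the 30, and the 95% interval of its siTfam mean ran from -3.63 to 1.62.

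Feedback and stress effectors were represented by Trib3 and Ppp1r15b, 2 of 6 listed. Trib3 encodes a pseudokinase that binds and restrains ATF4. Its ratios were 0.39 and 0.31 in siTfam and -0.04 and 0.34 in siDhx30, so that siDhx30 replicate 2 lay among the siTfam values. The siTfam mean of 0.35 had a 95% interval of -0.32 to 1.03 (limma adjusted p = 0.967). Ppp1r15b encodes the constitutive subunit that directs a phosphatase to eIF2 alpha, and it lay between -0.17 and -0.11 in all 4 libraries. Of its exon bases 11.4% are shared with a transcript on the other strand.

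Among secreted and surface proteins, Vldlr and Stc2 were measured, 2 of 4 listed. Vldlr (ENSMUSG00000024924.14, GRCm38 chromosome 19, 27216484 to 27254231, plus strand) encodes the very low density lipoprotein receptor, a stress-induced ATF4 target in other tissues. Its ratios were 0.56 and 0.73 in siTfam and -0.0012 and -0.24 in siDhx30, so the groups did not overlap. The siTfam mean of 0.65, or 1.56 times NC, had a 95% interval of 0.04 to 1.25 (limma adjusted p = 0.789). As a difference of 2 siTfam libraries from 1 NC library it had a limma SE of 0.22. Its siTfam minus siDhx30 difference was 0.77 (interval 0.27 to 1.26, limma adjusted p = 0.999), exceeded by 2.21% of all genes. Stc2, which encodes the secreted glycoprotein stanniocalcin-2, lay at 0.42 and 0.02 in siTfam and -0.05 and 0.21 in siDhx30, and these values overlapped.

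All 8 listed enzymes of serine synthesis and folate one-carbon metabolism were measured, and their differences were small. Serine is made from a glycolytic intermediate by PHGDH, PSAT1 and PSPH in turn, and SHMT and MTHFD enzymes pass its carbon to folate. Psat1 (ENSMUSG00000024640.9, GRCm38 chromosome 19, 15904678 to 15947337, minus strand) had ratios of 0.27 and 0.13 in siTfam and -0.03 and -0.0052 in siDhx30. For Phgdh the siTfam values were 0.09 and 0.15 and the siDhx30 values -0.17 and 0.03. Both genes were higher in both siTfam libraries than in either siDhx30 library, by 0.21 and 0.19 on average, with 95% intervals from -0.21 to 0.63 and from -0.26 to 0.64. Psph, the last step, differed more between replicates than between siRNAs, with -0.16 and 0.29 in siTfam and -0.45 and 0.60 in siDhx30, and 10.4% of its exon bases lie in exons of Cct6a on the other strand.

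The mitochondrial branch of the folate cycle showed no common direction between the siRNAs. Mthfd2, the mitochondrial dehydrogenase and cyclohydrolase often used as a marker of mitochondrial stress, had ratios of 0.06 and 0.14 in siTfam and -0.17 and -0.04 in siDhx30. These did not overlap, at a difference of 0.21 (interval -0.22 to 0.64). Shmt2, the mitochondrial serine hydroxymethyltransferase, had -0.13 and 0.12 in siTfam and -0.26 and -0.01 in siDhx30, which overlapped. Mthfd1l, the mitochondrial formate-producing synthetase, was above NC in every library and slightly higher in siDhx30 (0.16 and 0.18) than in siTfam (0.09 and 0.15). In the cytosol, Mthfd1 lay above NC throughout, at 0.55 and 0.27 in siTfam and 0.45 and 0.20 in siDhx30, and Shmt1 stayed between -0.02 and 0.14. Of the 8 enzymes, 7 had a siTfam mean above NC (87.5%, against 47.3% of all genes). A siDhx30 mean above NC was found for 4 (50%, against 48.1%), close to the share of all genes.

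Of the other enzymes of amino acid synthesis and the tRNA exporter Xpot, 4 of 7 genes were higher in both siTfam libraries than in either siDhx30 library (57.1%, against 14.3% of all genes). Asns (ENSMUSG00000029752.12, GRCm38 chromosome 6, 7675169 to 7693254, minus strand), the asparagine synthetase and a classic ATF4 target, had ratios of 0.47 and 0.27 in siTfam and 0.02 and -0.04 in siDhx30. The siTfam mean was 1.29 times NC, at a log2 ratio of 0.37 (interval -0.18 to 0.92), and 8.52% of all genes had a larger siTfam minus siDhx30 difference than its 0.38. Cth (ENSMUSG00000028179.12, GRCm38 chromosome 3, 157894248 to 157925077, minus strand), which makes cysteine from cystathionine, had 0.57 and 0.46 in siTfam and 0.27 and -0.05 in siDhx30. For Cth the siTfam mean was 0.52 (interval -0.12 to 1.15, limma adjusted p = 0.879), or 1.43 times NC, and the difference between the siRNAs was 0.41 (interval -0.11 to 0.92).

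Gpt2 (ENSMUSG00000031700.11, GRCm38 chromosome 8, 85492576 to 85527560, plus strand), the mitochondrial alanine transaminase, was likewise separated. It had 0.26 and 0.23 in siTfam and -0.16 and -0.07 in siDhx30, a difference of 0.36 (interval -0.05 to 0.77). Cbs, which acts just before Cth in cysteine synthesis, had -0.0060 and 0.17 in siTfam and -0.08 and -0.12 in siDhx30. The proline pathway did not follow. Aldh18a1, its first enzyme, had 0.20 and 0.06 in siTfam and -0.12 and 0.09 in siDhx30, and Pycr1, its last, ranged from -0.15 to 0.65 in siTfam and from 0.24 to 0.60 in siDhx30. Xpot lay between -0.12 and -0.08 in all 4 libraries.

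The ER and NRF arms leaned the other way or were spread by replicate. Xbp1, whose spliced mRNA encodes a factor of the unfolded protein response, was below NC in every library, at -0.43 and -0.39 in siTfam and -0.28 and -0.10 in siDhx30. The ratios count all its transcripts and do not show splicing. Nfe2l1, which encodes the proteasome regulator NRF1, was also below NC throughout, at -0.29 and -0.43 in siTfam and -0.13 and -0.25 in siDhx30. Both siTfam values lay below both siDhx30 values in these genes, by 0.22 and 0.17 on average, with intervals of the siTfam minus siDhx30 difference from -0.66 to 0.22 and from -0.61 to 0.27. The sensors and NRF2 were not separated. Atf6 had 0.71 and -0.17 in siTfam and 0.14 and 0.70 in siDhx30, Ern1 ranged from -0.21 to 0.31 over all 4 libraries, and Nfe2l2 from -0.16 to 0.44. Herpud1, an ER degradation factor that holds the C/EBP-ATF core printed above, had -0.05 and -0.05 in siTfam but -0.60 and 0.44 in siDhx30.

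**Figure D2:**
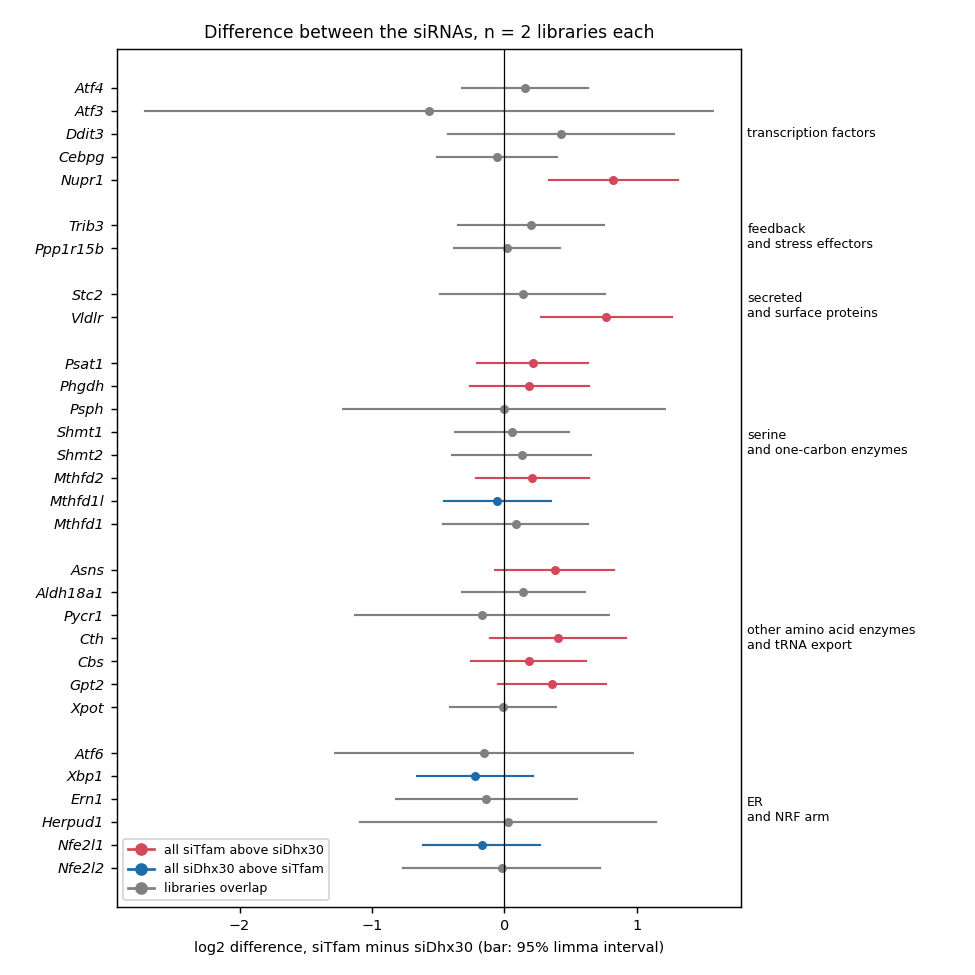
Difference of group means on the log2 scale, siTfam minus siDhx30, for each of the 30 genes (point), with its 95% limma interval (bar), 2 libraries a group. Red marks genes whose siTfam values both exceed both siDhx30 values, blue the reverse and grey an overlap, and the intervals of Nupr1 and Vldlr are those that leave out 0.

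The comparison of the siRNAs with each other does not involve the NC library. Of the 30 genes, 9 had both siTfam values above both siDhx30 values (30%, against 14.3% of all genes): Nupr1, Vldlr, Psat1, Phgdh, Mthfd2, Asns, Cth, Cbs and Gpt2. In the reverse order 3 did (10%, against 14.7% of all genes), namely Mthfd1l, Xbp1 and Nfe2l1. The median siTfam minus siDhx30 difference was 0.11, with 19 of 30 genes higher in siTfam (63.3%), and all genes had 0.0015 and 50.2%. The lean was not present in every contrast of libraries. Between the libraries numbered 1, 25 of 30 genes were higher in siTfam (83.3%, against 50.9% of all genes), with a median of 0.25. Between those numbered 2, 14 of 30 were (46.7%, against 49.5%), with a median of -0.02. That overall median depended on the libraries: it was 0.021 without siDhx30 replicate 1, 0.23 without siDhx30 replicate 2 and 0.19 without siTfam replicate 2. With a single library left on a side the groups separate more easily. Genes higher in siTfam without overlap then numbered 20 without siDhx30 replicate 2 (33.2% of all genes) and 18 without siTfam replicate 2 (29.4%). There were 13 without siTfam replicate 1 (35.7%) and 10 without siDhx30 replicate 1 (30.9%). In the last case the share, 10 of 30, was close to that of all genes. Genes higher in siDhx30 without overlap numbered 6 without siDhx30 replicate 1 (32.5% of all genes), 5 without siDhx30 replicate 2 (31.4%) and 9 without siTfam replicate 1 (35.4%).

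The median gap between replicates was 0.21 in siDhx30 and 0.15 in siTfam, where all genes had 0.23 and 0.24. A gap above 0.5 was found for 5 of the 30 in siDhx30 (16.7%, against 22.2% of all genes) and for 4 in siTfam (13.3%, against 23.6%). Against NC, 16 of the 30 genes were above it in both siTfam libraries (53.3%, against 32% of all genes) and 6 were below it in both (20%, against 34.4%). For siDhx30 the counts were 6 above (20%, against 32.1%) and 11 below (36.7%, against 34.9%). Both comparisons share the NC library, so a deviation of that library would move all 4 ratios of a gene together.

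**Figure D3:**
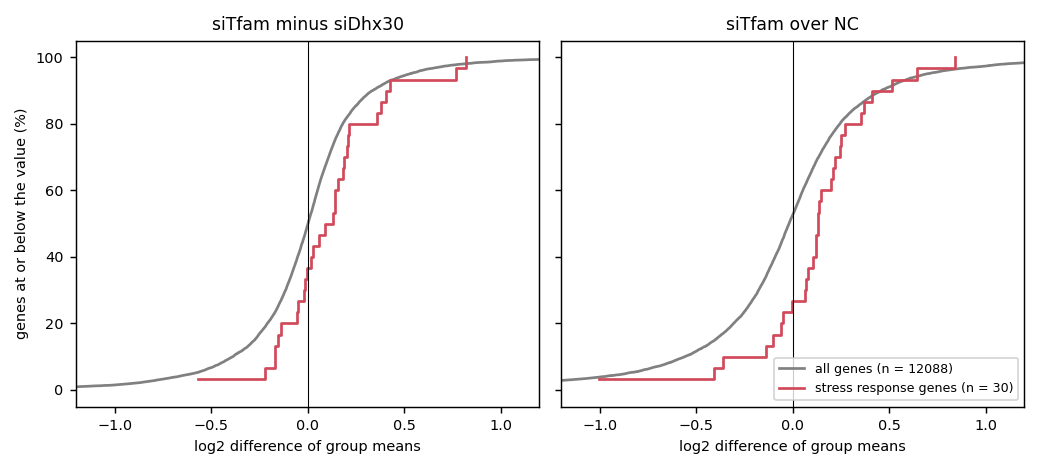
Cumulative share of genes (vertical axis, %) at or below a log2 difference of group means (horizontal axis), for all 12088 genes (grey) and the 30 stress response genes (red). In siTfam minus siDhx30 (left) and siTfam over NC (right) the red line lies mostly to the right of the grey one, with medians of 0.11 and 0.13 against 0.0015 and -0.02.

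The genes that hold the C/EBP-ATF core did not move as a block. Of the 7 measured genes with it, Nupr1, Vldlr and Asns were higher in siTfam without overlap. Trib3, Herpud1, Pycr1 and Atf3 overlapped, and among these Pycr1 and Atf3 had a lower mean in siTfam than in siDhx30. The median siTfam minus siDhx30 difference of the 7 genes was 0.20, against 0.11 for the 20 measured genes with a window and no core. Among all measured genes, the 234 with the core had a median of 0.03 and the 8106 without it one of -0.00089. Of these, 18.8% and 14.1% were higher in siTfam without overlap.

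Upstream of ATF4, the genes of the kinases and their signals had medians below NC in both groups. Of 17 measured genes of eIF2 alpha kinases, signal components, eIF2 and eIF2B (of 19 listed), 6 had a siDhx30 mean and 6 a siTfam mean above NC. These are 35.3% each, against 48.1% and 47.3% of all genes. The medians were -0.08 and -0.12, against -0.01 and -0.02 for all genes, and 0 passed the adjusted threshold. Between the siRNAs 2 were higher in siTfam without overlap (11.8%, against 14.3% of all genes) and 2 lower (11.8%, against 14.7%). Dele1, the messenger from stressed mitochondria, lay at -0.34 in both siTfam libraries and at -0.20 and -0.22 in siDhx30. Oma1, the protease that releases it, was above NC at 0.21 and 0.13 in siTfam and 0.24 and 0.09 in siDhx30. The kinase HRI (Eif2ak1) was below NC in all 4 libraries, from -0.50 to -0.14, as was PERK (Eif2ak3), from -0.34 to -0.05. PKR (Eif2ak2), the kinase that senses double-stranded RNA, ranged from -0.33 to -0.0027. GCN2 (Eif2ak4), the sensor of amino acid shortage, had 0.58 and 0.42 in siTfam and -0.12 and 0.49 in siDhx30, with siDhx30 replicate 2 between the siTfam values. Impact, an inhibitor of GCN2, lay between -0.35 and -0.19 throughout.

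Further ATF4 targets outside the 39 names had medians close to NC, although several were ordered by siRNA. The 13 measured cytosolic tRNA synthetases had a median ratio of 0.02 in siDhx30 and 0.03 in siTfam, with 6 of 13 higher in siTfam without overlap (46.2%, against 14.3% of all genes) and 2 lower (15.4%, against 14.7%). Aars, the alanyl-tRNA synthetase, had 0.16 and 0.16 in siTfam and 0.0051 and 0.04 in siDhx30. The 20 measured transporters and other targets (of 22 listed) had medians of -0.05 in siDhx30 and 0.02 in siTfam, with 6 higher in siTfam without overlap (30%) and 1 lower (5%). Slc7a11, the cystine transporter, had 0.34 and 0.24 in siTfam and 0.13 and 0.02 in siDhx30. Its partner Slc3a2 overlapped, between -0.22 and -0.04 in siTfam and between -0.32 and -0.01 in siDhx30. Slc7a5, the leucine transporter, had 0.0045 and -0.11 in siTfam and -0.21 and -0.12 in siDhx30. Eif4ebp1, an inhibitor of cap-dependent translation and an ATF4 target, did not share the positive siTfam ratios of the amino acid enzymes. Its ratios were -0.69 and -0.42 in siTfam and -0.87 and -0.50 in siDhx30, below NC in every library (limma adjusted p = 0.891 in siTfam against NC and 0.998 in siDhx30 against NC).

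Targets of the ER unfolded protein response lay near NC, and mitochondrial chaperones and proteases had medians below it in both groups. The 18 measured ER genes (of 24 listed) had medians of -0.01 in siDhx30 and -0.05 in siTfam, with 0 higher in siTfam without overlap (against 14.3% of all genes) and 2 lower (11.1%, against 14.7%). Hspa5, the ER chaperone BiP, had -0.31 and 0.0018 in siTfam and -0.19 and -0.13 in siDhx30. The 10 measured mitochondrial chaperones and proteases (of 12 listed) had medians of -0.07 in siDhx30 and -0.11 in siTfam, with 8 of 10 means below NC in each. The other 20% were above NC, against 48.1% of all genes in siDhx30 and 47.3% in siTfam. In both siTfam libraries 7 of 10 were below NC, against 34.4% of all genes, and in both siDhx30 libraries 4 of 10 were, against 34.9%. Between the siRNAs 0 were higher in siTfam without overlap (against 14.3%) and 1 was lower (10%, against 14.7%). Dnajb9, Hspd1 and Lonp1 had no row. No gene of these lists or of the synthetase and transporter lists passed the adjusted threshold in any comparison.

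**Figure D4:**
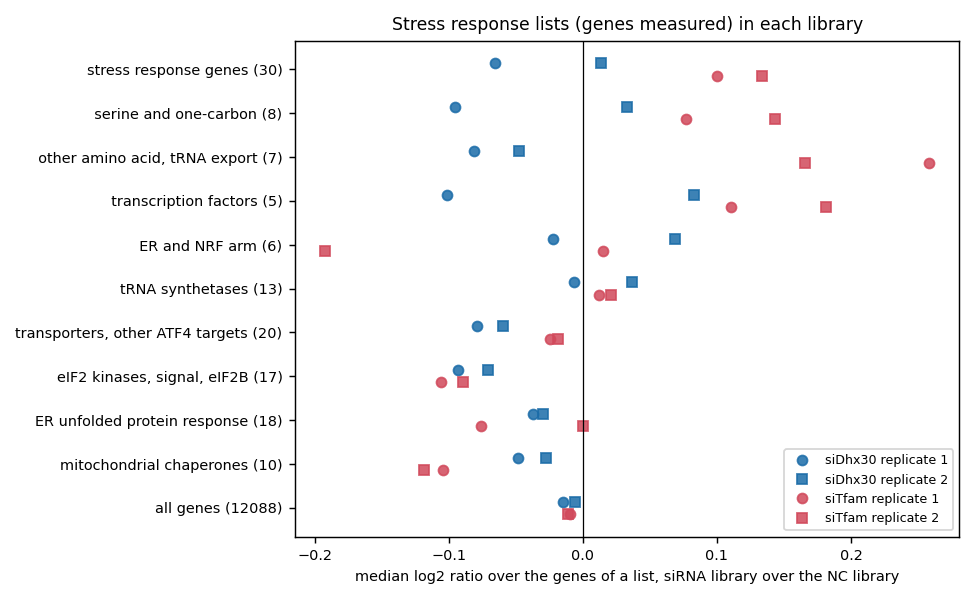
Median log2 ratio over the measured genes of each list (horizontal axis) in each library over NC, with the number of genes in brackets. Blue is siDhx30 and red siTfam, circles replicate 1 and squares replicate 2. The other amino acid enzymes with Xpot lie at 0.26 and 0.17 in siTfam against -0.08 and -0.05 in siDhx30. The serine and one-carbon enzymes lie at 0.08 and 0.14 in siTfam against -0.10 and 0.03 in siDhx30.

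Markers of the cells themselves were covered in part. Of 18 listed embryonic stem cell markers 6 were measured, without Pou5f1, Sox2 or Nanog. The labelled cell type could therefore not be checked by its defining genes, and ratios give no levels. Medians of the 6 were 0.16 and 0.065 in the siDhx30 libraries and 0.15 and 0.13 in the siTfam libraries. In both siTfam libraries 3 of 6 were above NC (against 32% of all genes) and 1 was below (against 34.4%). For siDhx30 these counts were 3 (against 32.1%) and 0 (against 34.9%). Of 11 listed primitive endoderm markers 5 had a value in every siRNA library: Dab2 and the collagen and laminin genes Col4a1, Col4a2, Lama1 and Lamb1. Gata4, Sox17, Sox7, Foxa2 and Pdgfra had no row, so the lineage could not be checked by them. All 5 were below NC in both siTfam libraries (against 34.4% of all genes). Their medians were -0.44 and -0.96, against -0.19 and -0.02 in the siDhx30 libraries. Gata6, also listed, lacked a value in some library and was left out. The remaining values of genes with a missing value were all above NC once the signs were turned, opposite to these 5. The part of the 5 markers in the siTfam ratios of the stress response genes was not tested. The 4 measured fibroblast or feeder markers (of 7 listed) had medians from -0.16 to 0.02 over the libraries. In bulk RNA, fewer cells of a type and less RNA per cell cannot be told apart.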

How the data were processed

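The members and lists were chosen with earlier results of these data known. Per the file headers, the deposited table gives log2 fold changes by gene, with 1 column for each siRNA library. HISAT2, featureCounts, DESeq2 and the build GRCm38 are named in the submitters' processing notes. Settings, the filter and the use of strand are not stated there. Names were matched to GENCODE M21 (12660 of 12930 names). The 12088 complete genes were fitted with limma 3.58.1 in R 4.3.3, with NC as a column of zeros, 3 groups, 2 residual degrees of freedom and robust variance moderation (prior degrees of freedom 2.02). The lone NC library is taken to vary as the others do. P-values were adjusted by Benjamini-Hochberg over all genes. The fit was tested on simulated data in 5 runs per comparison. All measured members could be named; other genes were named from a short list whatever their values. Lists are described by counts and medians without a test. Depth per library is unknown. Length and GC trends were fitted over 9257 protein-coding genes of 11859 with both values. Python 3.11.15, pandas 2.3.3 and matplotlib 3.10.9 were used.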

Additional observations from a re-analysis of the deposited data

How the results depend on the processing

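In every alternative run, 0 of the 30 genes passed the adjusted threshold (limma). The median ratio of siTfam over NC ranged from 0.10 to 0.13 when each library was left out in turn, and that of siDhx30 over NC from -0.07 to 0.01. The median of siDhx30 minus siTfam ranged from -0.23 to -0.021. Genes higher in siTfam without overlap numbered 10 to 20 (all genes: 29.4% to 35.7%), and genes higher in siDhx30 without overlap 3 to 9 (all genes: 29.6% to 35.4%), where a side with 1 library separates more easily. With length and GC trends removed the median of siDhx30 minus siTfam was -0.07, that of siTfam over NC 0.12, and the counts without overlap were 10 higher in siTfam (13.4% of all genes) and 2 higher in siDhx30 (15.6%). Centring each library, keeping genes with missing values or robust=FALSE changed none of these medians by more than 0.02. With the replicate block, the siDhx30 minus siTfam median was -0.11 and 0 genes passed (smallest limma adjusted p among the 30 genes 0.886). Over all genes the deviations of same-numbered libraries had a correlation of 0.254, but the labels do not say that a number marks a shared batch. Leaving out siDhx30 replicate 1 moved 8 of 30 genes across 0 in siDhx30 against NC, and leaving out siTfam replicate 2 moved 8 between the siRNAs. Depth is unknown, and no filter on low genes was possible.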
